A study of Danio rerio with 6 samples.

Results

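Coagulation factor and serpin genes were measured by RNA-seq in livers taken from zebrafish (Danio rerio) at 7 days post fertilization, in 3 libraries from wild-type larvae and 3 from sibling larvae overexpressing foxn3, a forkhead-box transcription factor gene, from a transgene. The genes were chosen by symbol, with earlier results of these data known. Serpins listed under other symbols were left out. Matched were fibrinogen chains, numbered clotting factors, symbols that begin with serpin, protein C, protein S, plasminogen, kininogen, carboxypeptidase B2 and von Willebrand factor. This gave 43 of the 21589 genes in the deposited table, 20 of them serpins, and the symbol patterns for plasma kallikrein and histidine-rich glycoprotein matched no row. All 43 passed the filter on low counts, as did 19573 genes in all. Neither the promoter driving the transgene, nor the number of larvae pooled into a library, nor whether libraries came from separate clutches is stated in the labels. Each p-value therefore measures the spread between these libraries, which may be technical. The study's theme is glucose use by the liver, and the comparison made here is transgenic against wild type for each of the 43 genes.

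Blood clotting proceeds by a chain of proteolytic steps. Tissue factor and factor VII start it, factors IX and X with their cofactors VIII and V amplify it, and thrombin, made from prothrombin (f2), turns soluble fibrinogen into fibrin. Protein C with protein S shuts down the cofactors, plasminogen dissolves fibrin, and serpins trap individual proteases by an irreversible change of shape. In vertebrates hepatocytes make most of these plasma proteins, while factor VIII comes largely from endothelium. Von Willebrand factor comes from endothelium and from thrombocytes or their mammalian counterparts, platelets.

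Library totals, summed over the 21589 genes of the deposited table, ran from 7732478 to 12550954 counts. Counting error weighs most on the members with low counts. The foxn3 gene had 304, 246 and 322 counts in wild-type libraries 1 to 3 and 1983, 2206 and 2540 in transgenic libraries 1 to 3. Of 12 hepatocyte marker names 9 were matched, and together these genes took 7.94 to 8.73% of wild-type and 7.33 to 8.75% of transgenic counts. The hepatocyte marker fabp10a is among the 6 IDs that the authors set apart for high counts and has no count here. Library totals, shares of counts and ranks therefore leave fabp10a out. Exocrine pancreas markers (21 of 23 matched, none at 0 in all libraries) took 0.364 to 0.816% of wild-type and 0.553 to 1.26% of transgenic counts, with the highest share in transgenic library 2. Endothelial markers (13 of 14) took 0.0349 to 0.0395% and 0.0329 to 0.0369%, and thrombocyte markers (8 of 9) 0.00506 to 0.00644% and 0.00455 to 0.00632%. Over all 6 libraries islet markers (11 of 11) took 0.00296 to 0.00977%, macrophage markers (7 of 9) 0.00184 to 0.00242%, neutrophil markers (5 of 5) 0.00151 to 0.00270% and erythrocyte markers (5 of 8) 0.00862 to 0.0328%. Keratinocyte and fibroblast markers are given beside the genes they move with.

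The 43 genes spanned levels from 0.666 to 2814 FPKM, and together they took 3.27, 2.90 and 3.37% of the counts of wild-type libraries 1 to 3 and 3.35, 3.41 and 3.13% of transgenic libraries 1 to 3. Levels are compared between genes as FPKM, which the authors computed per kilobase of exon and library size, averaged here over the 6 libraries. The antiprotease gene serpina1l led with 2814 FPKM, rank 25 among all 21589 genes. It was followed by fgg with 1643 FPKM at rank 56, serpina1 with 1530.4 at rank 61, the antithrombin gene serpinc1 with 1376 at rank 79 and fgb with 1197 at rank 90. The next 5 were plg at 959 FPKM, the antiplasmin gene listed as "SERPINF2 , member 2" at 875, fga at 796, f2 at 730.4 and serpinf2 at 569.7. In all 19 members averaged 100 FPKM or more, 11 lay between 10 and 100, and 13 lay under 10. The lowest was vwf at 0.666 FPKM, rank 18805.

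**Figure D1:**
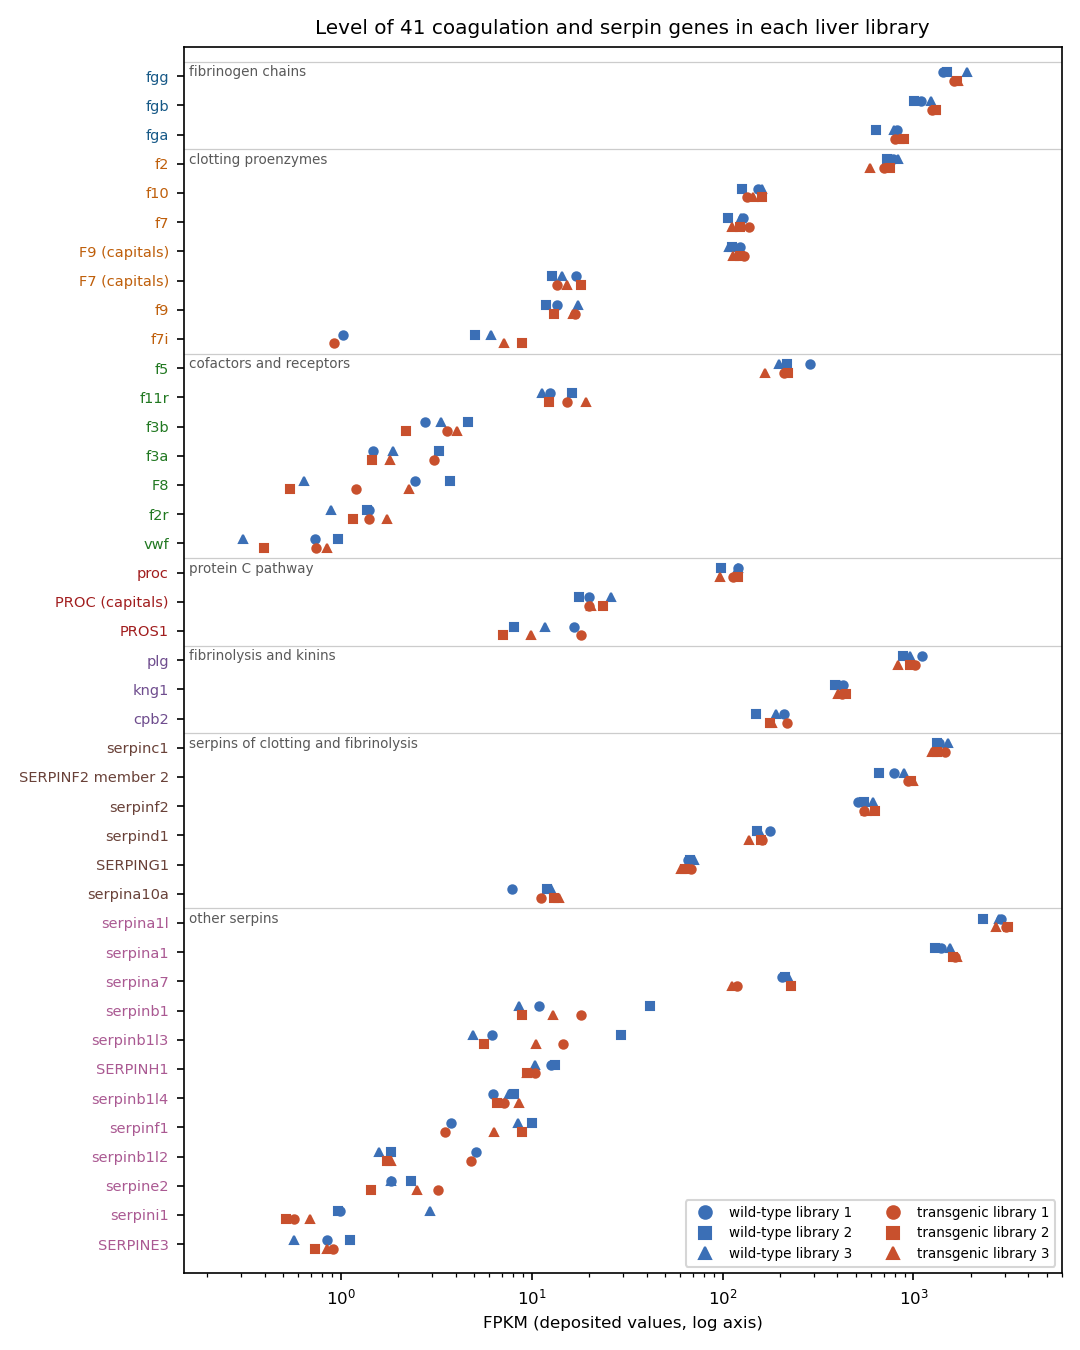
Deposited FPKM (x axis, log scale) of 41 of the genes (y axis, grouped by role and sorted by mean) in each library; blue symbols are wild-type and red symbols transgenic libraries, and the symbol's shape gives the library number. Libraries lie close together for the fibrinogen chains, while those of f7i, serpinb1, serpinb1l3 and serpina7 lie farther apart.

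None of the 43 genes was called different between transgenic and wild-type livers. edgeR's quasi-likelihood test called 0 of 43 members at a Benjamini-Hochberg adjusted p of 0.05 over all 19573 genes, where it called 0% of all genes, and every member's adjusted p was at least 0.9999, given hereafter as 1. Over all genes edgeR's smallest adjusted p was 0.112, so foxn3, whose counts did not overlap between groups, was not called either. The absence of a call therefore does not show that a member was unchanged. DESeq2 and limma-voom also called 0 members, against 0.00511% and 0% of all genes. At an unadjusted p under 0.05 edgeR had 0 members higher, against 0.869% of all genes, and 1 lower, serpini1, against 1.38%. That is 2.33% of the members against 2.25% of all genes, so the share is that of the table as a whole. DESeq2 had 1 member at an unadjusted p under 0.05, serpini1 again, against 2.02% of all genes, and limma-voom had 0 against 1.8%. In CPM, the normalized count, 0 members had all 3 transgenic values above the wild-type ones, against 3.31% of all genes, and 2 had them below, among them serpini1, against 3.15%. In either direction this was 4.65% of the members and 6.45% of all genes. In deposited FPKM, which carry no TMM factor, 3 members lay above without overlap, fgb, serpina1 and the antiplasmin gene listed as "SERPINF2 , member 2", or 6.98% of the members against 1.5% of all genes. Another 2 lay below, SERPINH1 and serpini1, or 4.65% against 4.14%. The 3 that lay above in FPKM overlapped in CPM, so their separation depended on the scaling.

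Most fold changes of the members were small, as they were over the table as a whole. Log2 fold changes within 0.2 of 0 made up 58.1% of the members and 58.0% of all genes tested. At 100 FPKM or more the shares were 68.4% and 73.2%. The median log2 fold change, transgenic minus wild type, was 0.067 over the 43 members and 0.0037 over all genes tested, and 28 members had positive values against 15 negative. Positive values thus made up 65.1% of the members and 50.6% of all genes. With library totals in place of TMM factors 21 of 43 were positive, or 48.8% against 40.5% of all genes. The medians were then -0.0028 over the members and -0.053 over all genes. The 19 members of 100 FPKM or more had a median of 0.12 with 15 positive, against 0.055 with 476 of 740 positive over all genes of that level. Transgenic library 2 had the highest CPM of the 6 libraries for 17 of these 19 abundant members but the highest deposited FPKM for 7. Its TMM factor was 0.848, against 0.967 to 1.07 in the others, and it also held the most exocrine pancreas RNA. The part of that RNA in these values was not tested. The counts of 17 and 7 are given without their counterparts over all genes. Without transgenic library 2, 8 of the 19 were positive and their median was -0.042. Over all genes 46.6% were then positive, with a median of -0.024. Over the 43 members 46.5% were positive, with a median of -0.018, so the members' share was that of the table as a whole. In bulk tissue a lower share of cells that make a transcript and less transcript per cell cannot be told apart.

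**Figure D2:**
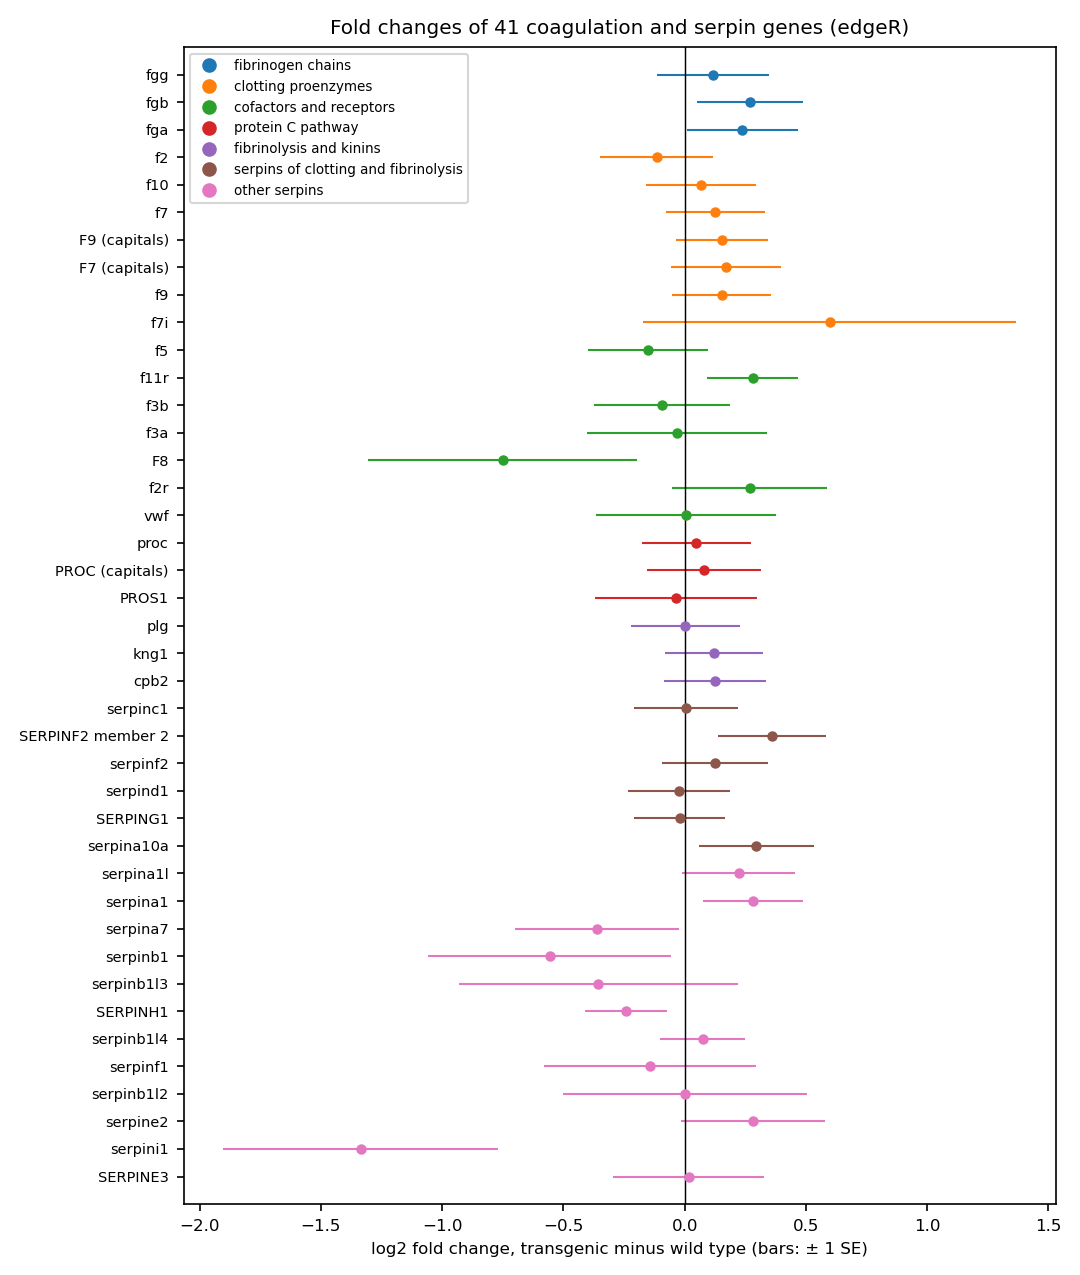
Log2 fold change, transgenic minus wild type, of 41 of the genes from edgeR (points) with 1 standard error to each side (bars), coloured by role. Most bars cross 0, and the points farthest from 0 with the widest bars belong to low genes: serpini1 at -1.34, F8 at -0.75 and f7i at 0.60.

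Fibrinogen is built from alpha, beta and gamma chains in equal number. fga, the alpha chain gene (chromosome 1, 9139584 to 9147623, minus strand, in the Zv9 assembly used throughout), stood at 824, 633 and 790.0 FPKM in wild-type libraries 1 to 3 and at 804, 889.8 and 837 in transgenic libraries 1 to 3. The beta chain gene fgb (chromosome 1, 9127846 to 9135580, plus strand) stood at 1093, 1009 and 1229.9 FPKM (wild type) against 1248, 1309 and 1289.6 (transgenic) in the same order. The gamma chain gene fgg (chromosome 1, 24527198 to 24536783, minus strand) stood at 1420.4, 1495 and 1914 (wild type) against 1624, 1692 and 1712 (transgenic). All 3 chains overlapped between groups when scaled as CPM. In FPKM fgb was the exception, since its transgenic libraries lay just above wild-type library 3. Log2 fold changes were 0.24 ± 0.23 for fga, 0.27 ± 0.22 for fgb and 0.12 ± 0.23 for fgg (SE), with unadjusted p-values of 0.33, 0.25 and 0.62 and adjusted p-values of 1 in edgeR's quasi-likelihood test. fga and fgb stayed positive under each of the 12 alternatives run, and fgg was at -0.018 without transgenic library 2. fga and fgb lie end to end 4004 bp apart on opposite strands, and fgg lies elsewhere on the same chromosome.

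Summed over the chains, fibrinogen reached 3338, 3137 and 3934 FPKM in wild type, against 3677, 3891 and 3839 in transgenic larvae. The means were 3469.6 ± 414 and 3802 ± 112 (SD, n = 3 each), 1.096-fold, and the exact permutation test (two-sided) gave p = 0.40. Wild-type library 3 lay above every transgenic library, so the difference was smaller than the spread between wild-type libraries. In every library fgg was highest and fga lowest. The ratio of fgb to fga was 1.33, 1.59 and 1.56 in wild type, against 1.55, 1.47 and 1.54 in transgenic larvae (exact permutation p = 1, two-sided). The ratio of fgg to fga was 1.72, 2.36 and 2.42 (wild type) against 2.02, 1.90 and 2.05 (transgenic; exact permutation p = 0.40), and that of fgg to fgb 1.30, 1.48 and 1.56 (wild type) against 1.30, 1.29 and 1.33 (transgenic; exact permutation p = 0.30). Wild-type ratios varied more than transgenic ones: the SD of fgg to fga was 0.387 against 0.0771, a difference in spread that was not tested. In all 10 sums and ratios were tested in this way, 3 libraries against 3 cannot give a p below 0.10, and the smallest Benjamini-Hochberg adjusted p over the 10 was 0.5.

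**Figure D3:**
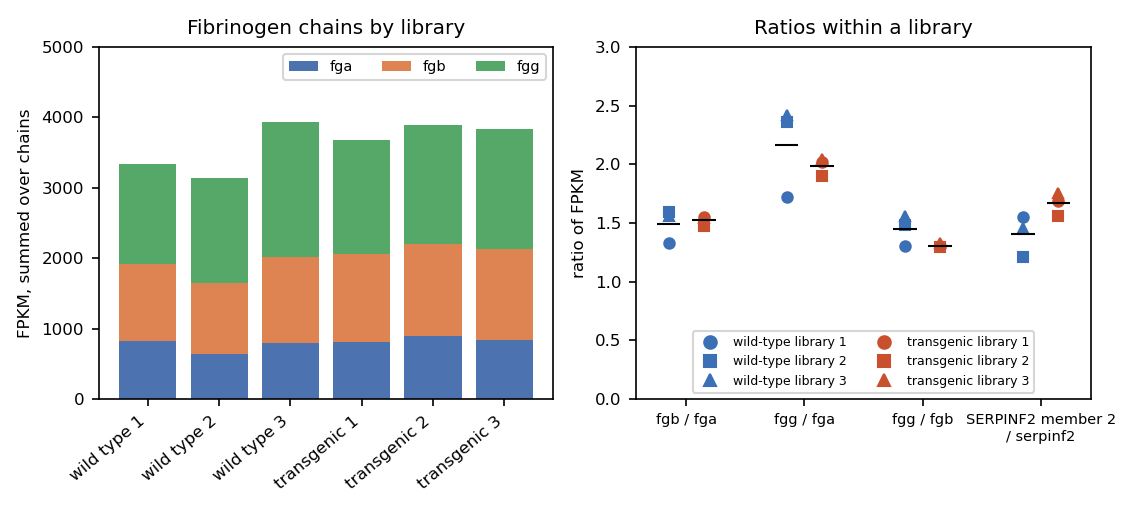
Left, deposited FPKM of fga, fgb and fgg (stacked bars, axis from 0) in each of the 6 libraries. Right, ratios of FPKM within a library for pairs of fibrinogen chains and for the antiplasmin genes (points, blue for wild-type and red for transgenic libraries, shape for library number, black line for the mean of 3); the 3 transgenic ratios of the antiplasmin pair sit above the 3 wild-type ratios, from 1.56, while all chain ratios overlap between groups.

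Among the clotting proenzymes, prothrombin was by far the most abundant. f2 stood at 781, 728 and 826 FPKM in wild type, against 703, 752 and 594 in transgenic larvae, a log2 fold change of -0.12 ± 0.23. f10, which encodes the enzyme that cleaves prothrombin, had 153, 126 and 162 FPKM (wild type) against 135, 161 and 144 (transgenic). f7, which encodes the partner of tissue factor, had 127, 107 and 124 (wild type) against 138, 124 and 112 (transgenic). The groups overlapped for all 3 genes, with log2 fold changes of 0.067 ± 0.23 for f10 and 0.13 ± 0.20 for f7. Factor IX has a pair of entries: the gene listed in capitals as F9 (ENSDARG00000029493, chromosome 10) had 124, 112 and 109 FPKM in wild type, against 130.2, 123 and 114 in transgenic larvae. The gene listed as f9 (ENSDARG00000010097, chromosome 14) had 13.6, 11.9 and 17.5 FPKM (wild type) against 16.8, 13.01 and 16.5 (transgenic), so the chromosome 10 copy was the higher in each of the 6 libraries. Log2 fold changes were 0.16 ± 0.19 and 0.15 ± 0.20.

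A run of 4 clotting genes on the plus strand lies near the start of chromosome 1. In order they are a second gene listed in capitals as F7 (ENSDARG00000076045, 3799 to 15138), f7 (15961 to 21248), f7i (23255 to 58985), listed as factor VIIi, and f10 (32019 to 38477). The span of f10 lies inside that of f7i on the same strand, so reads of the overlap cannot be assigned with certainty, and how the authors' counting dealt with it is not stated. F7 in capitals had 17.0, 12.8 and 14.4 FPKM in wild type, against 13.6, 18.2 and 15.4 in transgenic larvae, well under f7 in each library. f7i was the most variable of the run, with 30, 165 and 126 counts in wild type, against 28, 299 and 208 in transgenic larvae. Its CPM was 2.68 and 2.36 in the libraries numbered 1 of each group and 12.7 to 28.1 in the other 4. The f7 to f7i ratio of FPKM accordingly ran 123, 21.1 and 20.4 in wild type, against 149.7, 13.9 and 15.7 in transgenic larvae. Between the groups the log2 fold change of f7i was 0.60 ± 0.77, with an unadjusted p of 0.45 in edgeR's test, and it was -0.082 without transgenic library 2, 0.14 without wild-type library 1 and 1.105 without the transgenic one. A sum was taken over the 7 genes grouped here as proenzymes, f7i among them. It averaged 1193 ± 80.7 FPKM in wild-type and 1113 ± 101 in transgenic libraries (SD, n = 3 each, exact two-sided permutation p = 0.40). Whether the f7i product is an active clotting enzyme was not examined.

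The cofactors differed sharply in level from one another. f5, which encodes the cofactor that speeds prothrombin cleavage, stood at 287, 217 and 196 FPKM in wild type, against 210.1, 219 and 167 in transgenic larvae, a log2 fold change of -0.15 ± 0.25. F8, which encodes the related cofactor of factor IX, had 171, 296 and 32 counts in wild type, against 88, 44 and 160 in transgenic larvae, and both groups ranged widely within themselves. Its log2 fold change was -0.75 ± 0.55 (edgeR, unadjusted p = 0.21, adjusted p = 1). It was -1.16 without wild-type library 3 (edgeR, unadjusted p = 0.022), where the smallest adjusted p of any member was 0.9996. Without wild-type library 2 it was -0.23, without transgenic library 2 -0.43 and without transgenic library 3 -1.30, so single libraries decided its size. The authors' deposited table also lists for F8 an exon at 1033168 to 1033330 of chromosome 14 with an exon log2 ratio of 1.03 and a corrected p of 1, and it lists an exon log2 ratio of 0 for the other 42 genes. vwf, which encodes the plasma carrier of factor VIII, had 67, 100 and 20 counts in wild type, against 71, 42 and 78 in transgenic larvae and a log2 fold change of 0.0063 ± 0.37. The endothelial receptor gene kdrl stood at 18.0 to 22.1 FPKM over the 6 libraries and the thrombocyte integrin gene itga2b at 0.751 to 1.06.

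Tissue factor genes were low. f3a had 1.47, 3.28 and 1.88 FPKM in wild type, against 3.08, 1.45 and 1.80 in transgenic larvae, and f3b had 2.74, 4.63 and 3.36 (wild type) against 3.60, 2.19 and 4.04 (transgenic). Their log2 fold changes were -0.032 ± 0.37 and -0.094 ± 0.28, and f3a was at 0.35 with wild-type library 2 left out and -0.35 with transgenic library 1 left out. The symbol rule also took in a pair of receptors. f2r, which encodes a thrombin receptor, had 20, 22 and 9 counts in wild type, against 21, 19 and 25 in transgenic larvae (log2 fold change 0.27 ± 0.32). f11r, listed as F11 receptor and known to encode a junctional adhesion molecule, had 12.4, 16.3 and 11.3 FPKM (wild type) against 15.4, 12.4 and 19.3 (transgenic) (log2 fold change 0.28 ± 0.19, unadjusted p = 0.17 in edgeR's test). Neither group of libraries stood apart for these 4 genes.

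The protein C pathway limits clotting by cutting factors V and VIII. Protein C has adjacent entries on the minus strand of chromosome 2, 1176 bp apart. The gene listed as proc (ENSDARG00000038258) had 119.8, 97.6 and 120.3 FPKM in wild type, against 114, 121 and 97.3 in transgenic larvae, and the one listed in capitals as PROC (ENSDARG00000093079) had 19.9, 17.6 and 26.1 (wild type) against 20.1, 23.6 and 20.4 (transgenic). Wild-type and transgenic values overlapped for both, with log2 fold changes of 0.048 ± 0.23 and 0.080 ± 0.24. PROS1, which encodes the cofactor protein S, had 16.6, 8.06 and 11.7 FPKM in wild type, against 18.0, 7.07 and 9.90 in transgenic larvae. It was highest in library 1 of both groups and lowest in library 2 of both, and its log2 fold change was -0.036 ± 0.34. Without transgenic library 1 it was -0.44, and without wild-type library 1 it was 0.25.

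Fibrin breakdown and kinin genes showed small differences between groups. plg, which encodes the precursor of the fibrin-cleaving enzyme plasmin, had 1104, 885 and 953 FPKM in wild type, against 1017, 964 and 831 in transgenic larvae, a log2 fold change of 0.0024 ± 0.22. cpb2, whose product removes plasminogen binding sites from fibrin, had 209, 149 and 191 FPKM (wild type) against 217, 178 and 182 (transgenic) (log2 fold change 0.12 ± 0.21). kng1, which encodes the precursor of bradykinin, had 427, 386 and 411 FPKM (wild type) against 423, 441 and 404 (transgenic) (log2 fold change 0.12 ± 0.20). The groups overlapped for all 3 genes. The sign of plg turned under 8 of the 12 alternatives, between -0.15 and 0.14.

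A group of 8 serpin members was taken as acting on clotting or fibrin-dissolving enzymes. Of these, 5 had positive and 3 negative fold changes, none with an unadjusted p under 0.05 in edgeR's test. The group leaves out serpine2 and serpini1, which are given below with the other serpins. For serpini1 the unadjusted p in that test was 0.041. serpinc1 encodes antithrombin, the main brake on thrombin and factor Xa. It had 1356, 1328 and 1524 FPKM in wild type, against 1463, 1336 and 1248 in transgenic larvae, with a log2 fold change of 0.0044 ± 0.21. serpind1, which encodes heparin cofactor II, another thrombin inhibitor, had 177, 152 and 156 FPKM (wild type) against 160.5, 158 and 137 (transgenic) (log2 fold change -0.023 ± 0.21). SERPING1, which encodes the C1 inhibitor of complement and contact enzymes, had 65.5, 67.8 and 70.4 FPKM (wild type) against 68.0, 63.7 and 60.6 (transgenic) (log2 fold change -0.021 ± 0.19). For these 3 inhibitors the group means were close to equal. serpina10a, whose mammalian counterpart inhibits factor Xa with protein Z, was much lower, with 7.90, 12.05 and 12.7 FPKM (wild type) against 11.1, 13.1 and 13.9 (transgenic) (log2 fold change 0.30 ± 0.24, or 0.11 without wild-type library 1). A gene with the reference name serpina10b was listed under another symbol and so is not a member. It had 60.6, 39.2 and 49.5 FPKM (wild type) against 58.3, 45.2 and 45.7 (transgenic), above serpina10a in each library. Summed over the 8 members, without serpina10b, FPKM averaged 3045 ± 247 in wild-type and 3173 ± 83.7 in transgenic libraries (SD, n = 3 each; exact two-sided permutation p = 0.50).

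Antiplasmin, the chief inhibitor of plasmin, is encoded by a pair of genes in the table. The one listed as "SERPINF2 , member 2" (chromosome 15, 25877319 to 25886034, minus strand) had 795, 662 and 895 FPKM in wild type, against 935, 973 and 990.0 in transgenic larvae, and each transgenic value lay above each wild-type value. In CPM the groups overlapped, with 1326, 1068 and 1589.8 in wild type, against 1539, 1971 and 1600.3 in transgenic larvae, and the log2 fold change was 0.36 ± 0.22 (edgeR, unadjusted p = 0.14, adjusted p = 1). It stayed positive under all 12 alternatives, between 0.23 and 0.51. The other copy, serpinf2 (chromosome 21, 38928682 to 38941298, plus strand), had 513, 548 and 614 FPKM (wild type) against 554, 625 and 564 (transgenic) and a log2 fold change of 0.13 ± 0.22, or -0.064 without transgenic library 2. Within a library the ratio of the first copy to the second needs no scaling. It was 1.55, 1.21 and 1.46 in wild type, against 1.69, 1.56 and 1.76 in transgenic larvae, with means of 1.40 ± 0.177 and 1.67 ± 0.101 (SD, n = 3 each). The transgenic libraries all lay above the wild-type ones, and the exact permutation test (two-sided) gave its smallest possible value, p = 0.10, adjusted to 0.5 over the 10 sums and ratios. This ratio was chosen after the values had been seen.

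Among the other serpins, serpina1 and serpina1l were the most abundant. Their mammalian counterpart is alpha-1-antitrypsin, a plasma inhibitor of neutrophil elastase. serpina1l (chromosome 20, 10726061 to 10728283, plus strand, exon length 1635 bp) and serpina1 (chromosome 20, 10732282 to 10734497, plus strand, exon length 1628 bp) lie 3999 bp apart. As related neighbours they may share reads, so the split between them is uncertain. serpina1l had 2864, 2305 and 2819 FPKM in wild type, against 3045, 3144 and 2709 in transgenic larvae, and serpina1 had 1392, 1297 and 1547 (wild type) against 1646, 1610.4 and 1691 (transgenic). Both groups overlapped for serpina1l, while for serpina1 the transgenic FPKM values lay above the wild-type ones. Log2 fold changes were 0.22 ± 0.23 and 0.28 ± 0.21, with unadjusted p-values of 0.36 and 0.21 in edgeR's test, and both stayed positive under all 12 alternatives. Their summed FPKM was 4256, 3601 and 4365 in wild type, against 4691, 4755 and 4400.2 in transgenic larvae. The transgenic sums lay above the wild-type sums, 1.13-fold on average, and the exact permutation test (two-sided) gave its smallest possible value, p = 0.10, adjusted to 0.5. In CPM the groups overlapped for both genes. Wild-type library 3 had 2609 for serpina1 and 4775 for serpina1l, against 2596 and 4178 in transgenic library 3. The separation of the sums thus depended on the scaling. The ratio of serpina1l to serpina1 was 2.06, 1.78 and 1.82 (wild type) against 1.85, 1.95 and 1.60 (transgenic; exact permutation p = 0.60). Both the sum and the ratio were chosen after the values had been seen.

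serpina7, whose mammalian counterpart is the thyroxine-binding globulin of plasma, parted the transgenic libraries from one another. It had 3229, 3754 and 2446 counts in wild type, against 1951, 4124 and 1754 in transgenic larvae. In CPM these were 288, 289 and 327 (wild type) against 165, 388 and 152 (transgenic), so transgenic libraries 1 and 3 lay below all wild-type libraries and transgenic library 2 above them. The log2 fold change was -0.36 ± 0.34 (edgeR, unadjusted p = 0.31, adjusted p = 1). Without transgenic library 2 it was -0.94 (edgeR, unadjusted p = 0.001, adjusted p = 0.9994 over all genes), and without transgenic libraries 1 or 3 it was -0.17 or -0.12. serpini1, which encodes neuroserpin, an inhibitor of tissue plasminogen activator best known from neurons, was near the bottom of the counted range, with 10, 11 and 21 counts in wild type, against 6, 6 and 7 in transgenic larvae. Its CPM was 0.893, 0.846 and 2.81 (wild type) against 0.507, 0.564 and 0.605 (transgenic), all transgenic libraries lying below all wild-type ones. The log2 fold change was -1.34 ± 0.57 (edgeR, unadjusted p = 0.041, adjusted p = 1), and it was -0.63 with an unadjusted p of 0.23 without wild-type library 3, which held the most counts. SERPINH1, which encodes a collagen chaperone, had 12.7, 13.2 and 10.4 FPKM in wild type, against 10.4, 9.47 and 9.45 in transgenic larvae (log2 fold change -0.24 ± 0.17, unadjusted p = 0.19 in edgeR's test). Its transgenic FPKM values all lay below the wild-type ones, transgenic library 1 only just, while its CPM values overlapped. serpine2 and SERPINE3 reached at most 3.24 FPKM, with log2 fold changes of 0.28 ± 0.30 and 0.017 ± 0.31.

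Clade B serpins are intracellular inhibitors found in leukocytes and epithelia, and a pair of them stood out in 1 library. serpinb1 had 13.2, 48.8 and 11.1 CPM in wild type, against 21.8, 13.1 and 15.2 in transgenic larvae, and serpinb1l3 had 7.86, 35.9 and 6.69 (wild type) against 18.2, 8.65 and 12.97 (transgenic). Wild-type library 2 was the highest for both. Their log2 fold changes, -0.56 ± 0.50 and -0.36 ± 0.58, turned to 0.45 and 0.87 without that library, with unadjusted p-values of 0.11 and 0.024 in edgeR's test. With wild-type library 2 left out, 709 of 19925 genes had an unadjusted p under 0.05, and the smallest adjusted p of any member was 0.9998. The same library was highest in skin keratinocyte markers (5 of 6 matched, none at 0 in all libraries), which took 0.0410, 0.143 and 0.0378% of wild-type and 0.0510 to 0.0680% of transgenic counts. The keratin gene krt4 was likewise highest there, with 134, 542 and 131 FPKM in wild type, against 241, 174 and 247 in transgenic larvae. Fibroblast markers (8 of 8 names, 9 genes) took 0.0245, 0.0490 and 0.0174% of wild-type and 0.0212 to 0.0294% of transgenic counts. The part of other cells in the serpinb1 values was not tested. serpinb1l4 did not share the pattern, with 34.8, 43.5 and 44.8 CPM (wild type) against 39.2, 44.3 and 46.2 (transgenic). Outside clade B, wild-type library 2 also had the highest CPM of all libraries for low members such as F8, vwf, f3a, f3b and SERPINE3.

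Several low members had both libraries numbered 1 at an extreme, which was no more frequent among members than over all genes. Both libraries numbered 1 had the lowest CPM of the 6 for members such as f7i, serpina10a, serpinf1 and serpinb1l4, and the highest for PROS1 and serpinb1l2. serpinf1, which encodes pigment epithelium-derived factor, had 7.14, 18.5 and 17.1 CPM in wild type, against 6.59, 20.5 and 11.7 in transgenic larvae. serpinb1l2 had 9.73, 3.39 and 3.21 CPM (wild type) against 9.03, 4.04 and 3.37 (transgenic). Both genes are given here because their number 1 libraries lay at an extreme, so the gap between library 1 and the rest is no separate finding. Between genotypes the log2 fold changes of serpinf1 and serpinb1l2 were -0.14 ± 0.44 and 0.0020 ± 0.50. Leaving out wild-type library 1 put serpinb1l2 at 0.73, and leaving out transgenic library 1 at -0.57. In all 7 of 43 members, or 16.3%, had both number 1 libraries at an extreme, against 20.3% of all genes. The corresponding shares for number 2 were 4.65% of members and 14% of all genes, and for number 3 6.98% and 14%. Erythrocyte markers were also lowest in the libraries numbered 1, at 0.00862% (wild type) and 0.0125% (transgenic), against 0.0280 to 0.0328% elsewhere. Islet markers were lowest there too, at 0.00296 and 0.00360%, against 0.00476 to 0.00977%. Neutrophil markers were highest there, at 0.00270 and 0.00210%, against 0.00151 to 0.00200%. The other marker sets did not part these libraries from the rest. The part of other cells in these members' values was not tested. The labels do not say what the numbers stand for, and the members' share was not above that of the whole table.

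**Figure D4:**
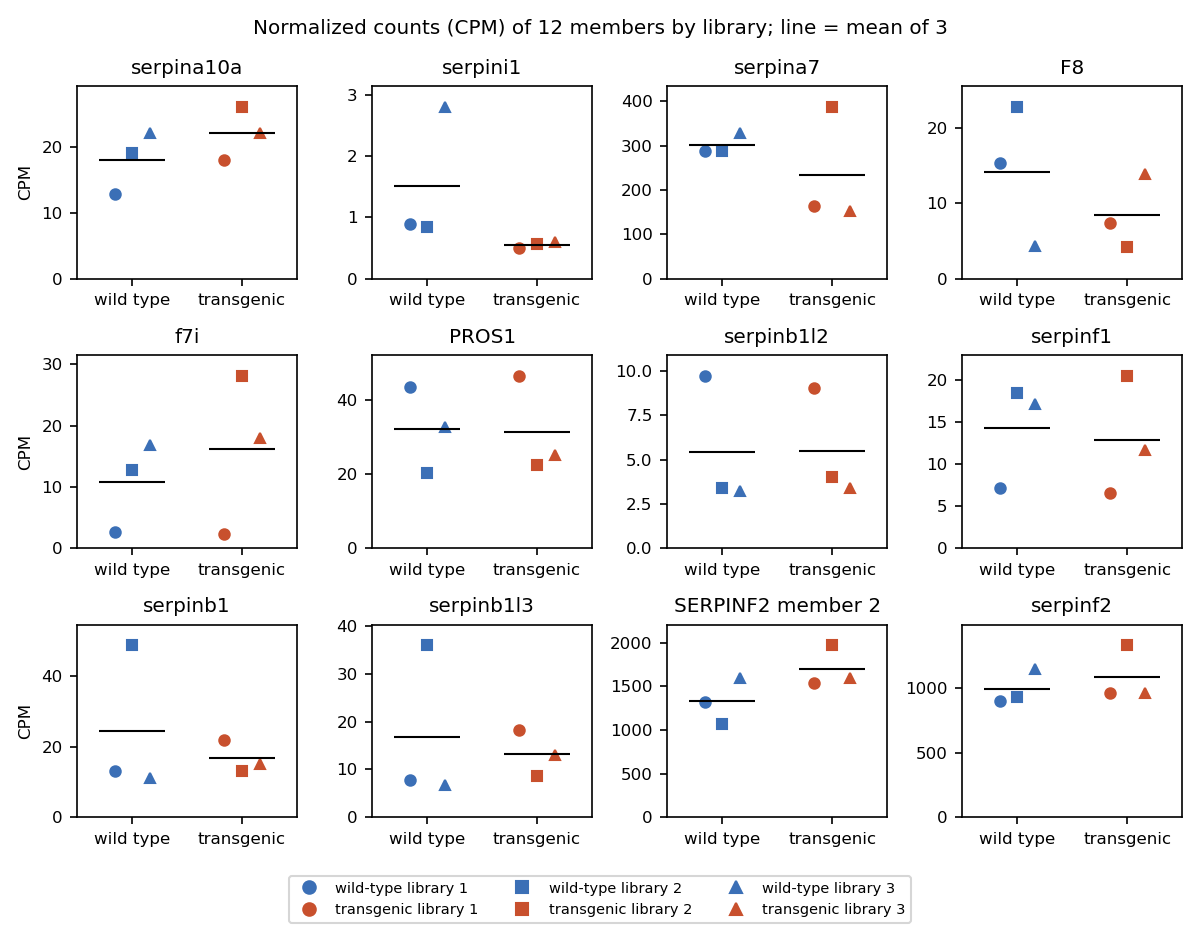
CPM of 12 members (y axes from 0) in wild-type (blue) and transgenic (red) libraries, with the shape giving the library number and the line the mean of 3. For serpini1 the groups do not overlap. For f7i, PROS1, serpinb1l2 and serpinf1 the circles of libraries 1 lie together apart from most others. For serpinb1 and serpinb1l3 wild-type library 2 stands alone, and for serpina7 transgenic libraries 1 and 3 lie below the others.

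Genes of the pathway outside the symbol rule were examined as a companion list. Of 41 companion names 28 were matched, to 29 genes that all passed the filter, of which 13 had positive and 16 negative fold changes at a median log2 fold change of -0.035. None had an unadjusted p under 0.05 in edgeR's test, where 2.25% of all genes did. None was free of overlap between groups in CPM, where 6.45% of all genes were. The 5 of highest level were p4hb, a folding enzyme of the endoplasmic reticulum, at 562 FPKM averaged over 6 libraries, the protease inhibitor a2ml at 546, the plasma protease habp2 at 346, GGCX at 73.3 and mcfd2 at 70.2. GGCX, the carboxylase that gives vitamin K-dependent factors their calcium-binding residues, had 82.7, 73.3 and 79.2 FPKM in wild type, against 60.5, 75.8 and 68.3 in transgenic larvae. mcfd2, which helps factors V and VIII out of the endoplasmic reticulum, had 72.1, 77.7 and 70.2 (wild type) against 56.7, 70.5 and 74.1 (transgenic). Groups overlapped for both.

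In the authors' deposited table the 43 genes had log2 ratios from -0.57 for serpini1 to 0.30 for the antiplasmin gene listed as "SERPINF2 , member 2", and the smallest adjusted p was 0.9998. The authors' deposited table gives serpina7 a log2 ratio of -0.26, with the same sign as the fold change found here.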

How the data were processed

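Total RNA of zebrafish larval livers was sequenced from stranded libraries, 50 bp from 1 end, per the labels. The authors aligned reads to Zv9 with Novoalign and compared groups with DESeq2, per the submitters' processing notes, in versions not given in these sources. The deposited counts are alignments overlapping a gene by at least 1 bp, per the file headers, and whether strand was used is not stated. The authors' FPKM are counts per exonic kilobase, scaled to library size, per the file headers. The authors' log2 ratios and scores, 10 times the negative log10 of an adjusted p, and their regularized log2 values come from DESeq2, per the file headers; the regularized values were not tested.

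Members and lists were chosen with earlier results of these data known. Counts were tested in R 4.3.3 with edgeR 4.0.16 (TMM, filterByExpr, glmQLFit, glmQLFTest, no covariate, Benjamini-Hochberg over 19573 genes, threshold 0.05); the standard error is the fold change over the square root of F. CPM are relative to TMM-scaled totals. DESeq2 1.42.0, limma-voom (limma 3.58.1), other scalings, no filter, a replicate block and leaving out each library were alternatives. Sums and ratios used exact two-sided permutation tests. The text names the 10 members of highest FPKM, those at an unadjusted p under 0.05, and the classical factors and inhibitors. Of the members without overlap between groups in CPM it names only serpini1. The remaining members named were added after their values had been seen. Results for 2 of the 43 members enter the counts, medians and sums and are otherwise not reported here. The edgeR step was checked on simulated data. The factor IX, protein C and serpin symbols are those of the deposited table, and protein or promoter sequences were not used here.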

Additional observations from a re-analysis of the deposited data

How the results depend on the processing

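No member was called over all genes under any of the 12 alternatives run. Over all genes the count of calls was 0, and it became 1 with DESeq2, 1 with the replicate block and 0 to 1 when single libraries were left out. The 1 member at an unadjusted p under 0.05 became 2 with library totals alone, 0 with limma-voom and 0 to 2 without single libraries, and the counts elsewhere were 1. Over all genes the counts at that level were 441 of 19573 in the main fit, 400 with library totals alone and 353 with limma-voom. Without single libraries they ran from 238 of 20229 to 801 of 20102, with 709 of 19925 where wild-type library 2 was left out. The difference between groups in the fgb to fga ratio, 0.030, ran from -0.054 to 0.080 without single libraries. The other chain ratios are separate quantities, with differences of -0.18 for fgg to fga and -0.14 for fgg to fgb. The cause was not tested. The median log2 fold change of the members ran from -0.018 to 0.15 without single libraries. The fibrinogen and clotting-serpin sums stayed higher in transgenic livers under each alternative run.

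Signs of 25 of the 41 members described turned in at least 1 alternative, 64 of 492 values in all; none of these members was called. With library totals alone log2 fold changes turned to -0.037 for serpinb1l2, -0.065 for plg, -0.056 for serpinc1, -0.047 for SERPINE3, -0.0028 for f10, -0.023 for proc, -0.038 for vwf. With DESeq2 they turned to -0.0012 for plg, -0.00090 for serpinc1, and with its size factors in edgeR to -0.0028 for serpinb1l2, -0.0031 for plg, -0.0019 for serpinc1. limma-voom gave -0.0065 for plg. Without single libraries these members crossed 0: serpinb1 (-0.89 to 0.45), serpinb1l2 (-0.57 to 0.73), plg (-0.15 to 0.14), f3a (-0.35 to 0.35), serpinb1l3 (-0.72 to 0.87), serpinf2 (-0.064 to 0.25), serpinf1 (-0.65 to 0.17), serpinc1 (-0.11 to 0.11), kng1 (-0.042 to 0.21), f2 (-0.33 to 0.031), serpind1 (-0.18 to 0.10), SERPING1 (-0.14 to 0.075), SERPINE3 (-0.15 to 0.24), f5 (-0.36 to 0.018), F7 in capitals (-0.085 to 0.30), f7i (-0.082 to 1.105), f10 (-0.14 to 0.19), PROS1 (-0.44 to 0.25), fgg (-0.018 to 0.31), cpb2 (-0.026 to 0.22), proc (-0.16 to 0.19), PROC in capitals (-0.13 to 0.30), f3b (-0.26 to 0.11), serpinb1l4 (-0.029 to 0.14), vwf (-0.29 to 0.34).

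The library numbers were tested as a replicate block although the labels do not say that they pair libraries. Deviations from the group means, across all genes tested, correlated at 0.34, -0.11 and 0.16 between the libraries numbered 1, 2 and 3. Number 3 of wild type correlated more with transgenic library 2 (0.19). Deviations from a mean of 3 libraries are tied to one another, so these values cannot decide whether the numbers pair libraries. The replicate block raised the number of genes at an unadjusted p under 0.05 from 441 to 637, left that of members at 1, and turned plg to -0.0071, serpinb1l3 to 0.055. Depth limits the members of low counts, such as serpini1, vwf and f2r.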
